A study of Mus musculus with 6 samples.

Results

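The replication-dependent histone genes encode the histones that package newly made DNA. Here they were taken as the genes of the Gencode M21 basic annotation whose symbol starts with Hist1h, Hist2h, Hist3h or Hist4h, and they came to 70 of 55450 annotated genes. Of these, 67 were protein-coding and 3 were pseudogenes. By class there were 6 H1, 20 H2A, 19 H2B, 12 H3 and 13 H4 genes, and by locus 56 Hist1 genes on chromosome 13, 10 Hist2 genes on chromosome 3, 3 Hist3 genes on chromosome 11 and 1 Hist4 gene on chromosome 6. A gene was called peaked in a library when a deposited peak overlapped it by at least 1 bp, and reproducibly peaked in a tissue when this held for eCLIP-1 and eCLIP-2 but not for the input.

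The study mapped RNAs bound by STRAP, a WD40-repeat protein that associates with the spliceosome, by eCLIP-seq, in which ultraviolet crosslinking and immunoprecipitation of a protein are followed by sequencing of the RNA fragments that stay attached. All libraries came from wild type C57BL/6 material. The embryo group was pooled whole embryos at prenatal day 9.5 and the EB group was 9-day-old embryoid bodies (EBs), which are aggregates grown from embryonic stem cells and steered here towards neural fate. Each tissue had 2 eCLIP libraries from independent material and 1 input library of RNA that was not immunoprecipitated. No library lacked STRAP, so the peaks had no loss-of-protein control.

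Most messenger RNAs are spliced and end in a poly(A) tail. Replication-dependent histone mRNAs are different, since their genes mostly lack introns and the mRNAs end just after a conserved stem-loop. The stem-loop binding protein SLBP holds this stem-loop, and the U7 small nuclear ribonucleoprotein guides the cut downstream of it. The replication-dependent histone genes are expressed in S phase and lie in clusters of many near-identical copies. H2A, H2B, H3 and H4 form the core of the nucleosome, and H1 binds the linker DNA between nucleosomes.

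The stem-loop was read from the GRCm38 genome for the coding members by a pattern of stem and loop within 150 nt past the coding sequence, and 62 of 67 genes held it. Of 22447 other coding genes searched in the same way, 3 held the pattern (0.0134%). The following sequences are shown because the ends of the eCLIP peaks are described relative to them. They run 5′ to 3′ on the strand of the gene, with the 16 nt of the stem and loop in capitals.
Hist1h1a (chr13:23764387-23764412, plus strand): ccaacGGCTCTTTTCAGAGCCaccaa
Hist1h2ah (chr13:22035122-22035147, minus strand): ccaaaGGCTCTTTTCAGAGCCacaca
Hist1h2ak (chr13:21753377-21753402, minus strand): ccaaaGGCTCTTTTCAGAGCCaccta
Hist2h2ac (chr3:96220413-96220438, minus strand): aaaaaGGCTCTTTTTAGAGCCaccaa
Hist2h2bb (chr3:96270166-96270191, plus strand): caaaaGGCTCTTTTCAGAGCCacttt
Hist1h3e (chr13:23561898-23561923, minus strand): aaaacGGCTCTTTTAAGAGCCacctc
Hist1h4d (chr13:23581945-23581970, plus strand): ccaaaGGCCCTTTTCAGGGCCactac
The form on the first 3 of these lines and on that of Hist2h2bb was found in 38 of the 62 genes. They were H1, H2A, H2B and H3 genes, and no H4 gene was among them. The form of Hist1h4d was found in 8 genes, all of them H4.

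The libraries differed in depth. The eCLIP libraries held between 136935 and 228422 tags after removal of duplicates, and the inputs held 6289516 (embryo) and 6825190 (EB). The smallest peak listed had 3 or 4 tags in the eCLIP libraries and 10 in the inputs, so absence from a list is not a level of 0. The fragment size set in peak calling was 200 in 5 libraries and 76 in EB eCLIP-2, whose peaks were narrower. As a weak check of tissue, 5 of 5 erythroid marker genes (embryonic and adult globins) were peaked in at least 1 embryo eCLIP library and 0 of 5 in the EB eCLIP libraries, although Hba-x had a peak in the EB input. Of 4 pluripotency markers, Nanog, Pou5f1 and Dppa5a were peaked in both EB eCLIP libraries and none in the embryo. Of 5 neural markers, Sox2 was peaked in both EB eCLIP libraries, and Nes and Tubb3 in 1 embryo eCLIP library each, so these markers did not separate the tissues.

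To ask how often STRAP peaks fell on histone genes, peaked members were counted in each tissue. In embryos, 20 of 70 histone genes (28.6%) were reproducibly peaked, where the share over all annotated genes was 0.871%. In EBs this held for 14 of 70 (20%), against 1.04% of all genes. At least 1 eCLIP library held a peak on 34 histone genes in embryos (48.6%, against 3.25% of all genes) and on 31 in EBs (44.3%, against 3.79%). The input shares were lower: 1 histone gene was peaked in the embryo input (1.43%, against 2.78% of all genes) and 3 were peaked in the EB input (4.29%, against 2.28%), so the histone share was below that of all genes in the embryo input and above it in the EB input. The background shares include many genes that are not expressed in these tissues.

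Most histone genes lack introns, although Hist1h2bc, Hist1h2be, Hist1h2bp, Hist1h2bq and Hist1h2br have a transcript of 2 exons in the annotation. The histone genes were therefore set beside the 1319 other intronless protein-coding genes, a set that includes many olfactory receptor genes. Of these, 10 (0.758%) in embryos and 7 (0.531%) in EBs were reproducibly peaked. Over the other 21884 protein-coding genes the same shares were 1.54% and 1.91%. The histone genes were short, with a median annotated length of 532 bp against 1126 bp for the other intronless protein-coding genes. For the other protein-coding genes it was 17528 bp, introns included. The part of gene length in the shares was not tested. The transcript level of the genes was not used in these counts, and its part in the shares was not tested.

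**Figure D1:**
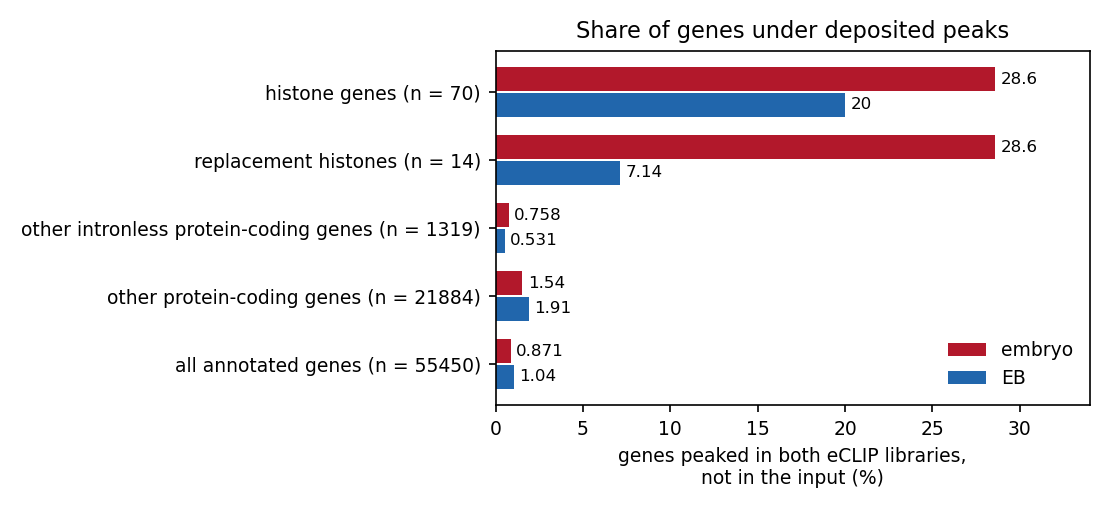
Percent of the genes of each group (vertical axis, n is the number of genes) that were reproducibly peaked in a tissue, that is in eCLIP-1 and eCLIP-2 but not in the input (horizontal axis, %). Histone genes stood at 28.6% in embryos and 20% in EBs, and other intronless protein-coding genes at 0.758% and 0.531%.

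The calls overlapped between replicates. In embryos 21 of the 24 histone genes peaked in eCLIP-1 were peaked in eCLIP-2, which held 31 in all. In EBs the replicates shared 16 genes, out of 21 peaked in the first and 26 in the second. Over the 4 eCLIP libraries 38 histone genes were peaked at least once, 27 of them in both tissues, 7 in embryos alone and 4 in EBs alone. Of the 70 histone genes, 31 had no peak in any of the 6 libraries. The histone genes peaked in 1 tissue alone were small calls, with between 3 and 8 tags in each library that held one. Of all annotated genes, 3.25% were peaked in at least 1 embryo eCLIP library and 3.79% in at least 1 EB eCLIP library. In embryos, 1317 of all genes were peaked in eCLIP-1, 1203 in eCLIP-2 and 1804 in at least 1 of them. In EBs these counts were 1262, 1628 and 2100. The replicates thus shared calls over all genes as well. How the calls of all genes overlapped between tissues was not counted, so the overlap between tissues above has no background.

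As tags, histone genes held 2731 and 2922 RPM (reads per 1000000, here the tags of the listed peaks on a gene over all tags of the library) in the embryo eCLIP libraries, and 1492 and 1291 in those of EBs. The inputs held 1.75 (embryo) and 10.1 (EB) RPM in listed peaks on these genes. Every eCLIP library stood above both inputs. The mean was 2109 ± 836 (SD, n = 4) in eCLIP and 5.93 ± 5.91 (SD, n = 2) in the inputs (exact permutation test, two-sided, p = 0.133, where the smallest p that 15 arrangements allow is 0.0667). The lists hold no tags outside peaks, so this is a comparison of listed peaks and not of all reads. The eCLIP mean and SD pool both tissues. All listed peaks together held 62203 of 6289516 input tags for embryos and 51435 of 6825190 for EBs. For eCLIP-1 these were 21844 of 136935 and 20839 of 165566, and for eCLIP-2 25001 of 185125 and 23477 of 228422. The gap in RPM is therefore partly general to the lists. Of the tags in all listed peaks, histone genes held 1.19% to 2.16% across the eCLIP libraries. The inputs had 0.0177% (embryo) and 0.134% (EB).

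Between tissues, the embryo eCLIP libraries held 2826 ± 135 RPM on histone genes (SD, n = 2) and the EB eCLIP libraries 1392 ± 142 (SD, n = 2). The difference of 1435 RPM was larger than the spread between replicates. With 2 libraries against 2 an exact permutation test cannot go below 0.333, which is the two-sided p it gave. As a share of the tags in all listed peaks the values were 1.71% and 2.16% in embryos and 1.19% and 1.26% in EBs, also without overlap. By number of peaks the tissues did overlap, since 1.45% and 1.99% of embryo peaks fell on histone genes and 1.43% and 1.59% of EB peaks, with 95% exact binomial intervals from 0.852% at the lowest to 2.90% at the highest, which cover counting error only.

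Of the histone genes, 12 (17.1%) were peaked in all 4 eCLIP libraries, against 0.723% of all annotated genes. They were 5 H1 genes, 4 H2A genes, 2 H2B genes and 1 H4 gene, and no H3 gene was among them. In 11 of the 12, both embryo libraries were above both EB libraries in RPM. Among all 401 genes peaked in all 4 eCLIP libraries this held for 60.1%, and the opposite, both EB libraries above both embryo libraries, held for 7.23% and for 0 of the 12 histone genes. The median ratio of embryo to EB was 1.75 over the 12 and 1.56 over the 401, so a higher level in embryos was a common feature of the genes that these 4 libraries share. These are tags from RNA bound by STRAP in bulk tissue, and transcript level was not used. More cells that express a gene, more RNA per cell and more STRAP bound per RNA therefore cannot be told apart.

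**Figure D2:**
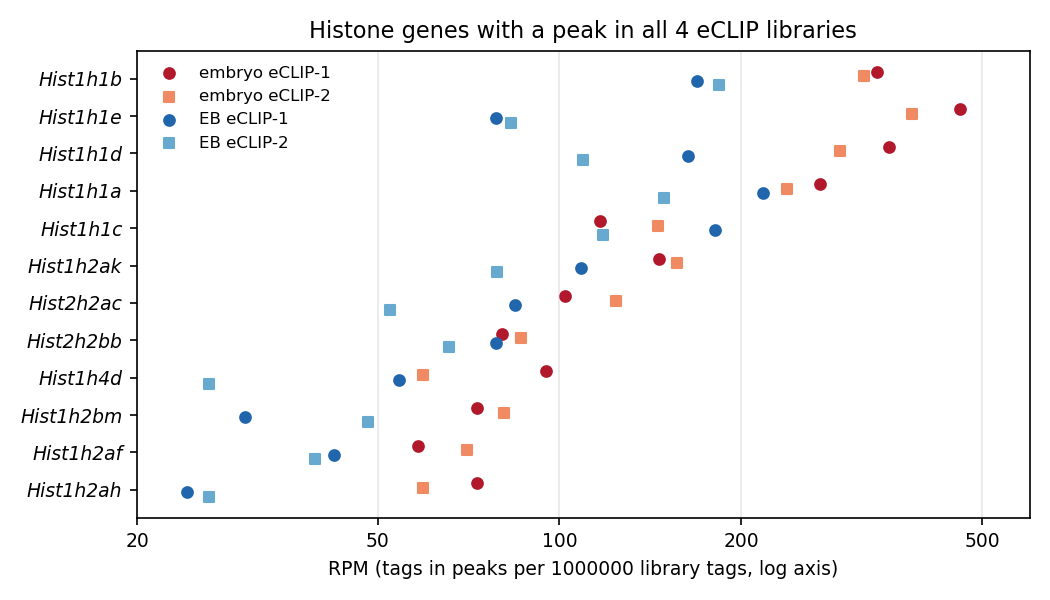
RPM, the tags in listed peaks per 1000000 library tags (horizontal log axis) for the 12 histone genes peaked in all 4 eCLIP libraries (vertical axis), with 1 point per library. Genes are ordered by the mean over the 4 libraries, in which the 5 H1 genes come first although Hist1h2ak exceeds Hist1h1c in both embryo libraries, and Hist1h1e shows the widest gap between embryos (460.1 and 383.5) and EBs (78.5 and 83.2).

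The linker histone H1 genes carried the most tags. H1 had 5 of its 6 genes peaked in all 4 eCLIP libraries, and the sixth, Hist1h1t, the testis-specific H1, had no peak in any library. The H1 genes held 56.2% and 47.1% of the histone tags in embryos and 54.3% and 49.8% in EBs. Hist1h1e, one of the main somatic H1 genes, had 460.1 and 383.5 RPM in embryo eCLIP-1 and eCLIP-2, and 78.5 and 83.2 in EB eCLIP-1 and eCLIP-2. The embryo mean was 5.22 times the EB mean with no overlap, and this ratio ranked 12 among the 401 genes peaked in all 4 libraries. Its EB counts were 13 and 19 tags, against 63 and 71 in embryos.

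The other H1 genes differed less between tissues. Hist1h1d had 350.5 and 291.7 RPM in embryos and 163.1 and 109.4 in EBs, a ratio of the means of 2.36. Hist1h1b, a somatic H1 of dividing cells, had 335.9 and 318.7 in embryos and 169.1 and 183.9 in EBs, a ratio of 1.85. Hist1h1a had 270.2 and 237.7 in embryos and 217.4 and 148.8 in EBs, a ratio of 1.39. For each of these 3 genes the embryo libraries lay above the EB libraries. Hist1h1c was the exception among the 12, with 116.8 and 145.8 in embryos and 181.2 and 118.2 in EBs, which overlapped (ratio 0.877). The order of the H1 genes therefore differed between tissues: Hist1h1e was highest in both embryo libraries and lowest in both EB libraries, although Hist1h1d and Hist1h1b overlapped in embryos. In EBs Hist1h1a and Hist1h1c overlapped Hist1h1b and Hist1h1d, and Hist1h1d lay below Hist1h1b.

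The inputs held peaks on 3 H1 genes. Hist1h1d had 11 tags in the embryo input (1.75 RPM). In the EB input Hist1h1b had 24 tags (3.52 RPM) and Hist1h1e had 32 (4.69 RPM). The input summits lay near the start codon, 7 nt into the coding sequence of Hist1h1d, 36 nt into that of Hist1h1b and 22 nt upstream of that of Hist1h1e, where the input peak also ran on upstream of the gene. Summits called with the fragment size of 200 are displaced by up to 62 nt from those called with 76, and moved by that difference the 3 input summits lay 69, 98 and 41 nt into the coding sequence. The fourth histone gene with an input peak was Hist3h2ba, with 13 tags in the EB input and no eCLIP peak. In the tissue of the input these genes do not count as reproducibly peaked.

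**Figure D3:**
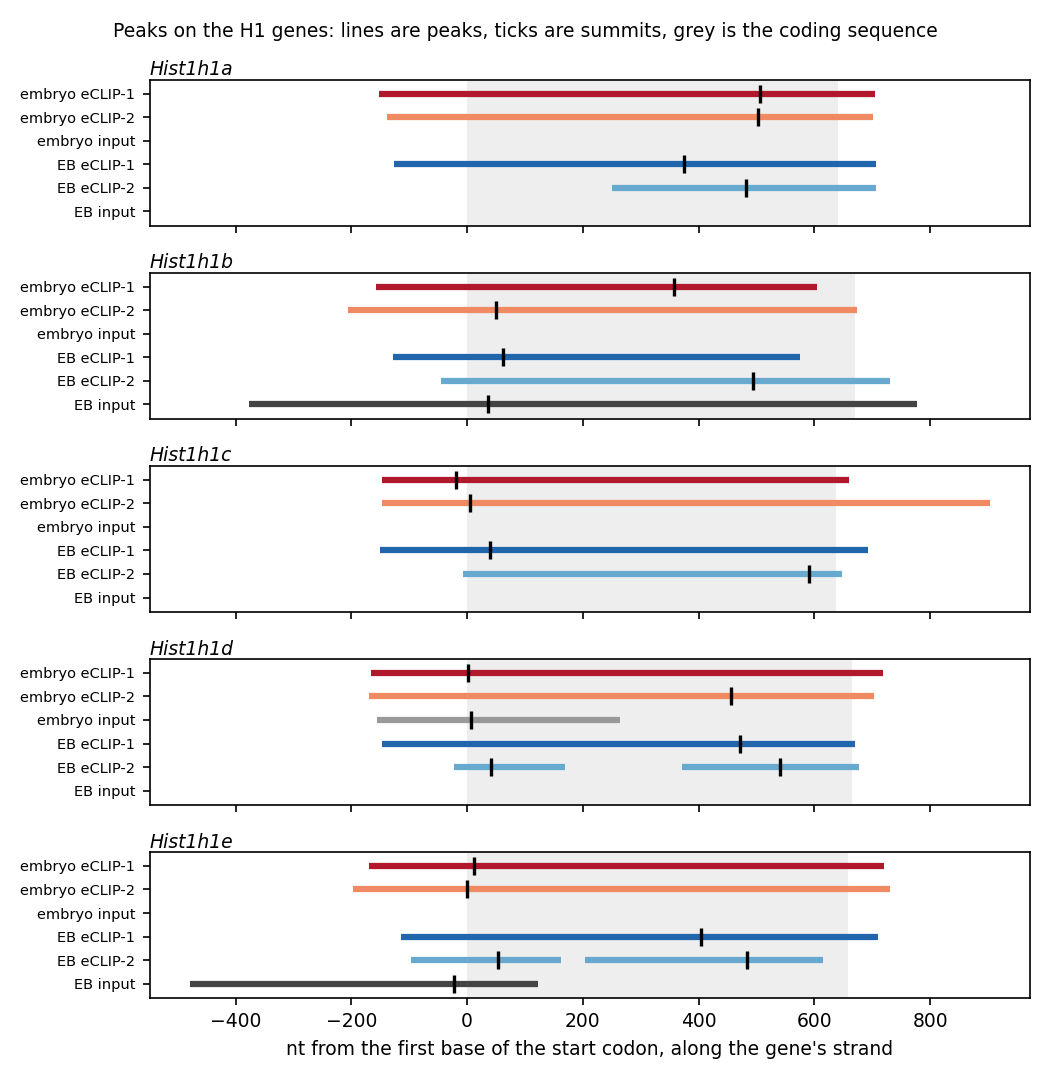
Listed peaks (lines) and their summits (ticks) on the 5 peaked H1 genes in the 6 libraries, in nt from the first base of the start codon along the strand of the gene, with the coding sequence in grey. EB eCLIP-2, called with the smaller fragment size, has separate peaks near the start codon and late in the coding sequence of Hist1h1d and Hist1h1e.

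Along the H1 genes the peaks covered most of the mRNA, and the summits fell in 2 regions. In EB eCLIP-2, the peaks of Hist1h1d split into one with its summit 41 nt from the start codon (13 tags) and one with its summit at 541 nt (12 tags), and those of Hist1h1e into summits at 53 nt (10 tags) and 483 nt (9 tags). Hist1h1a, Hist1h1b and Hist1h1c each had a single peak there, with summits at 481, 494 and 591 nt. In the other libraries the summit of a gene could lie at either end: that of Hist1h1d was at 1 nt in embryo eCLIP-1 and at 456 nt in embryo eCLIP-2, while that of Hist1h1c was between -20 and 39 nt in the 3 libraries called with the larger fragment size. Over all coding histone genes, each pair of a gene and a peak was counted, so a peak over several genes counts for each. The summit lay in the gene's coding sequence in 19 of 24 and 22 of 30 pairs in embryo libraries 1 and 2. In EB libraries 1 and 2 this held for 17 of 21 and 27 of 31 pairs.

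The late summits lie in the part of the mRNA that encodes the lysine-rich C-terminal tail with which H1 binds linker DNA. The 60 nt of coding sequence around the late EB eCLIP-2 summit of 4 H1 genes are shown in GRCm38 because they lie under those summits, with lysine codons (AAA and AAG) in capitals.
Hist1h1a (chr13:23764167-23764226, plus strand): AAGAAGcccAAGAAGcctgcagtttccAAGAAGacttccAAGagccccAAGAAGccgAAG
Hist1h1b (chr13:21780033-21780092, minus strand): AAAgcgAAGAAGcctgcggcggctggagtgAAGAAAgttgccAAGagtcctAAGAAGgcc
Hist1h1c (chr13:23739410-23739469, plus strand): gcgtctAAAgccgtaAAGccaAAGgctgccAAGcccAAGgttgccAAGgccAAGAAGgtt
Hist1h1d (chr13:23555600-23555659, plus strand): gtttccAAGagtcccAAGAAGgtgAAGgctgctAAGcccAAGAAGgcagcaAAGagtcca
Of the 20 codons in each window, 10 encoded lysine in Hist1h1a, 8 in Hist1h1b, 8 in Hist1h1c and 8 in Hist1h1d, which is 40% to 50%, against 27.2% to 29.1% of the codons in the whole coding sequences of these genes. Purines made up 60% to 68.3% of the windows and 58.3% to 59.3% of the coding sequences. The purine share was not the highest that a window of this length reached in any of the 4 genes. The windows were placed on the summits, so this describes where the peaks lay and is not a test of a motif.

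Among the core histones, H2A came next. Hist1h2ak had 146.1 and 156.7 RPM in embryos and 108.7 and 78.8 in EBs. Hist2h2ac, from the chromosome 3 cluster, had 102.2 and 124.2 in embryos and 84.6 and 52.5 in EBs. Both genes were higher in the embryo libraries without overlap. Hist1h2af had 58.4 and 70.2 in embryos and 42.3 and 39.4 in EBs, and Hist1h2ah had 73.0 and 59.4 in embryos and 24.2 and 26.3 in EBs. All of these H2A counts were small, between 4 and 29 tags in a library.

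H2B had 2 genes peaked in all 4 libraries. Hist2h2bb, which shared no 75-mer with another histone gene, had 80.3 and 86.4 RPM in embryos and 78.5 and 65.7 in EBs, the second-smallest ratio of the 12 (1.16). Hist1h2bm had 73.0 and 81.0 in embryos and 30.2 and 48.2 in EBs. The gap between tissues in Hist2h2bb was small, with embryo eCLIP-1 and EB eCLIP-1 at 11 and 13 tags.

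Many H2A and H2B genes lie head to head as divergent pairs, and 11 of the 96 eCLIP peaks on histone genes covered 2 histone genes, so their tags are counted for both. Of the same peaks, 37 of the 96 also overlapped an annotated gene that is no histone, nearly all predicted miRNA, antisense or long noncoding RNA genes. Hist1h2bn was called in 3 libraries with the same peaks as Hist1h2ak and was not called in EB eCLIP-2, where the narrower peak ended on Hist1h2ak. The summit of each shared peak lay in the coding sequence of Hist1h2ak. In embryos Hist1h2ac and Hist1h2bc shared peaks of 16 and 32 tags, with the summits in Hist1h2ac. Hist2h2ab and Hist2h2ac lie tail to tail and shared peaks of 14, 23 and 14 tags, with the summits in Hist2h2ac. For Hist1h2bn and Hist2h2ab the calls therefore rest on the neighbouring gene, and no strand in the files could assign them.

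Other H2A and H2B genes were peaked in 3 of the 4 eCLIP libraries. Hist1h2ab had 80.3 and 162.1 RPM in embryos, 43.8 in EB eCLIP-2 and no listed peak in EB eCLIP-1, and Hist1h2ai had 109.5 and 140.4 in embryos and 13.1 in EB eCLIP-2, also with no listed peak in EB eCLIP-1. Hist1h2ae had 108.0 in embryo eCLIP-2, 66.4 and 35.0 in EBs, and no listed peak in embryo eCLIP-1. The peaks behind its 108.0 and 66.4, of 20 and 11 tags, also covered Hist1h2bg. The summit of the larger one lay in the coding sequence of Hist1h2ae. That of the smaller one lay 306 nt upstream of this coding sequence and 19 nt upstream of that of Hist1h2bg. The 66.4 was therefore not assigned to Hist1h2ae alone. Hist1h2bl also had no listed peak in embryo eCLIP-1. Its 140.4 in embryo eCLIP-2 is the same peak of 26 tags as that of Hist1h2ai, with the summit in Hist1h2ai. In EBs Hist1h2bl had 30.2 and 26.3. The library without a call thus differed from gene to gene.

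H4 and H3 carried the fewest tags. Hist1h4d had 94.9 and 59.4 RPM in embryos and 54.4 and 26.3 in EBs, and was the only H4 gene peaked in all 4 libraries. Hist1h4c had 58.4 and 37.8 in embryos, 26.3 in EB eCLIP-2 and no listed peak in EB eCLIP-1. Of the 12 H3 genes 5 were peaked in at least 1 eCLIP library, and none in embryo eCLIP-2, the library with the most peaked histone genes. Hist1h3e had 29.2, none, 36.2 and 21.9 in embryo libraries 1 and 2 and EB libraries 1 and 2, in that order, and Hist1h3b had 29.2, none, 36.2 and 17.5. These H3 values rest on 4 to 6 tags each, close to the smallest peaks listed.

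Per kb of coding sequence in the class, H1 genes had 374 ± 28.4 RPM in embryos and 187 ± 30.1 in EBs (SD, n = 2 libraries each). H2A had 134.5 ± 35.5 and 46.4 ± 0.219, and H2B had 92.5 ± 45.4 and 41.8 ± 17.8. H4 had 37.3 ± 1.32 and 13.3 ± 0.318, and H3 had 12.3 ± 17.5 and 17.2 ± 4.59. In every eCLIP library H1 was above each of the core classes, while H2A and H2B overlapped in both tissues. H4 was above H3 in both embryo libraries, and in EBs H3 (20.4 and 13.9) was above H4 (13.5 and 13.1). H1, H2A, H2B and H4 were higher in embryos than in EBs without overlap, and H3 overlapped. The H2A and H2B values both count the peaks that cover a gene of each class.

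**Figure D4:**
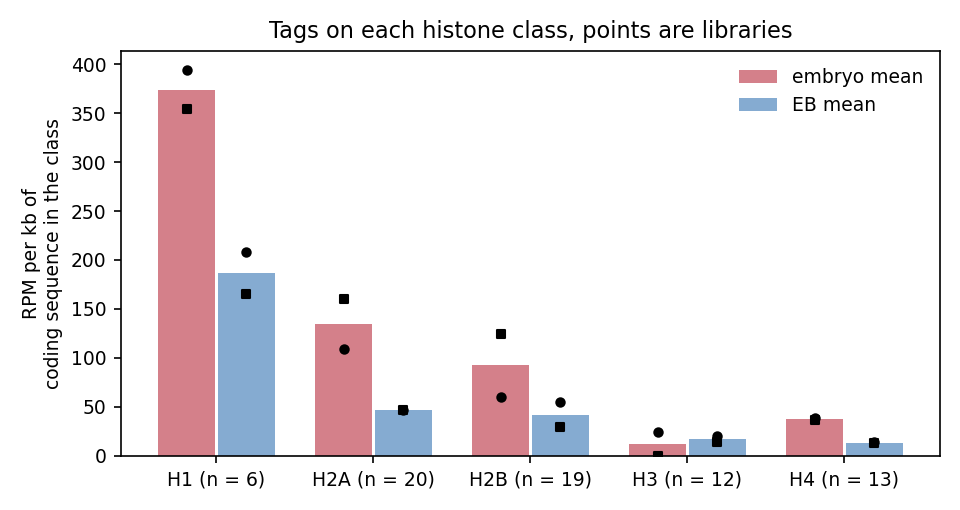
RPM per kb of coding sequence in the class (vertical axis) for each histone class (horizontal axis, n is the number of genes), with bars at the mean of 2 libraries and points at the libraries, circles for eCLIP-1 and squares for eCLIP-2. H1 genes stand above the core classes in every library.

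H1, the class with the most tags, also had the fewest shared copies, while among the core classes the order in RPM did not follow the shared sequence. A read from one histone gene can be placed on another that holds the same sequence, and the study's settings and text differ on whether reads with several placements were kept. Of the 67 coding genes, 58 shared at least one 75-mer, the length of a tag, with another histone gene, and in 11 every 75-mer was shared. The median share of 75-mers found in another histone gene was 8.80% in H1, 78.2% in H2A, 67% in H2B, 74.2% in H3 and 65.1% in H4. Of the 15 genes with at most 20% shared, 10 (66.7%) were peaked in at least 1 eCLIP library, of the 32 between 20% and 80% there were 19 (59.4%), and of the 20 with at least 80% there were 8 (40%). The first group includes the 6 H1 genes, so for H1 the class and the low share of copies cannot be told apart, and the part of read placement in the class levels was not tested. A call on a gene such as Hist1h2ah, with 96.1% of its coding 75-mers shared, may hold reads from its copies. Sequence outside the coding part was not compared, so such a call was not assigned to a single copy.

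By locus, the Hist1 genes held most of the signal, with 10 of 56 genes peaked in all 4 libraries. Of the 10 Hist2 genes, 2 were peaked in all 4 libraries and 3 in at least 1, and 7 had no peak. Hist3h2a was peaked in embryo eCLIP-2 alone with 8 tags, and Hist4h4 in embryo eCLIP-2 alone with 5 tags. Within the span of the Hist1 genes on chromosome 13, most eCLIP peaks lay on histone genes: 19 of 23 and 21 of 26 in embryos, and 16 of 20 and 29 of 32 in EBs. No listed peak lay within 500 bp of a histone gene without touching it.

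The ends of the peaks were set against the stem-loop. Over the 99 pairs of a gene and an eCLIP library with a stem-loop and a peak, the downstream edge lay 10 to 19 nt past the last base of the stem-loop in 40 (40.4%), from 22 genes, and short of it in 40 others. It lay more than 27 nt past the stem-loop in 7 pairs, from Hist1h1c, Hist2h2ab and Hist2h2ac alone. Edges in the range of 10 to 19 nt came from every library: 8 of 23, 14 of 29, 7 of 21 and 11 of 26 pairs in embryo libraries 1 and 2 and EB libraries 1 and 2, in that order. The pairs are not independent, since the same genes recur across libraries and near copies share reads.

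Of the 12 genes peaked in all 4 eCLIP libraries, 4 had an edge that varied by 10 nt or less between libraries. The edge on Hist1h2ah lay 11 to 14 nt past the stem-loop in all 4 libraries, that on Hist1h2ak 13 to 16 nt and that on Hist1h1a 12 to 16 nt. That on Hist1h4d lay 5 to 15 nt past it. On these 4 genes the edge fell in the same few nt with a fragment size of 200 and of 76. On the other 8 it varied by 42 to 422 nt. The edge on Hist1h1b was 14 nt past the stem-loop in EB eCLIP-2 and between 43 and 142 nt short of it in the other eCLIP libraries. How far the peak caller extends an edge beyond the last tag was not examined, so the edge is not a mapped RNA end.

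**Figure D5:**
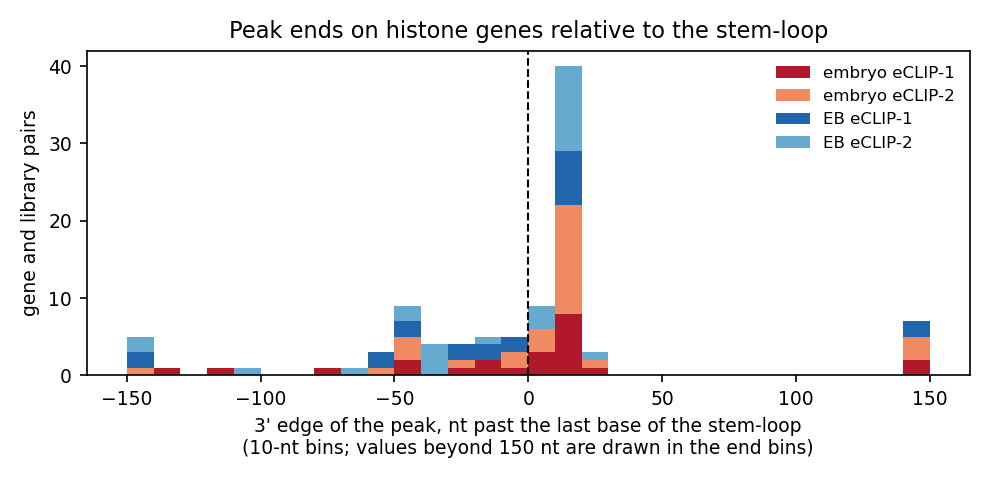
Position of the downstream edge of the eCLIP peaks in nt past the last base of the stem-loop (horizontal axis, bins of 10 nt, dashed line at the last base), as the number of gene and library pairs (vertical axis) stacked by library. The tallest bin holds the 40 of 99 pairs whose edge lay 10 to 19 nt past the stem-loop.

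Replacement histones, which are made outside S phase and mostly from polyadenylated mRNAs, were counted in the same way. Of 14 such genes, 4 in embryos (28.6%) and 1 in EBs (7.14%) were reproducibly peaked, which is the share of the replication-dependent genes in embryos and a lower one in EBs. The difference between the lists was not tested. H2afx, the variant phosphorylated at DNA breaks, had 15, 11, 17 and 12 tags in embryo libraries 1 and 2 and EB libraries 1 and 2, in that order, but also 32 and 47 tags in the embryo and EB inputs. H2afy, which encodes macroH2A, had 8, 9, 4 and 7 tags and no input peak, spread over several places in a long gene. H2afy was the 1 gene reproducibly peaked in EBs, but no peak of EB eCLIP-1 on it overlapped one of EB eCLIP-2. In embryos, 1 peak of each library overlapped. H1f0 (17 and 15 tags) and H2afy2 (7 and 6 tags) were peaked in the embryo eCLIP libraries. H1fx was peaked there with 7 and 18 tags and in the EB input with 31 tags.

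Of 20 listed genes for histone mRNA processing and decay, 19 were found in the annotation. Only Rnu7, the U7 small nuclear RNA that pairs with histone pre-mRNA downstream of the stem-loop, was peaked in more than 1 eCLIP library. It had 9 and 11 tags in embryos and 3 and 3 in EBs, with no input peak. The gene is 62 bp long and the peaks also overlapped Grcc10 and Gm45234. The summit lay inside Rnu7 in EB eCLIP-2 and outside it in the other 3 libraries. Those 3 were called with the fragment size of 200, which displaces summits by up to 62 nt from those called with 76. The summits on Rnu7 were not moved by that difference. The peaks carry no strand and lie over several genes, so the files do not assign these tags to 1 transcript. Ncbp1, a subunit of the nuclear cap-binding complex, and Eri1, an exonuclease that trims the histone stem-loop, were each peaked in 1 eCLIP library, and Slbp in none.

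Of 20 other genes expressed in S phase, 0 in embryos and 1 in EBs (5%) were reproducibly peaked, against 0.871% and 1.04% of all genes. At least 1 eCLIP library held a peak on 2 of them in embryos (10%) and on 7 in EBs (35%). The shares over all genes were 3.25% and 3.79%. Ccna2, Rpa2, Mcm2, Rrm1 and Uhrf1 each had a peak in 1 EB library alone, with 3 to 5 tags. Mcm3, a subunit of the replicative helicase, had 4 tags in embryo eCLIP-1, none listed in embryo eCLIP-2, and 13 and 9 tags in the EB libraries. More of the S-phase genes were thus peaked in EBs than in embryos, as over all genes, whereas 31 histone genes were peaked in EBs and 34 in embryos. This contrast was not tested.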

How the data were processed

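STRAP eCLIP-seq was analysed in 6 libraries, 2 eCLIP and 1 input from each tissue, grouped from the deposited labels. The authors used bcl2fastq 2.18.0.12 and cutadapt on the reads, filtered out repeats, aligned to GRCm38 with STAR 2.5.2b, took out duplicates and ran MACS 1.4.2 on every library alone (p cutoff 1e-05). The deposited headers name 0 control libraries, so peaks were not called against the input. The deposited tags are a count of reads in a peak, which the authors did not scale. The deposited score is -10 times log10 of a p-value for that peak, as the authors' caller wrote it. The deposited fold, a ratio, compares the summit with the background of that library. The study's methods describe calls against the input, which were not analysed here.

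Peaks were overlapped with genes by at least 1 bp on either strand, with no filter. RPM are the tags in overlapping peaks per 1000000 tags of the library. Members and gene lists were chosen with earlier results of these data known. The genes named were those peaked in at least 3 libraries, those with an input peak, and replacement histones or processing factors peaked in at least 2 eCLIP libraries; others are named to make up a count and were chosen after their values were seen. Exact two-sided permutation tests over libraries were run in numpy 2.4.6 and tested on simulated data. Shared sequence was counted as 75-mers of the coding sequence. Sequences came from RefSeq's GRCm38.p6 and coordinates count from 1. The window of 1 further H1 gene is not reported here. Alternatives covered fold, score, summit, overlap, copies and replicates. Intervals cover counting error only.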

Additional observations from a re-analysis of the deposited data

How the results depend on the processing

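Of 108 recomputed values, 78 were kept, 30 moved and 0 turned direction. A count was kept within 1.5 times of its main value, and a mean percent within 1 SD. The tissue difference in RPM was kept whenever its sign held, whatever its size, and only this result could turn direction. It was 883 RPM with the genes that share at most 20% of their 75-mers, against 1435. A fold above 5 moved none. With a score of at least 100, reproducibly peaked histone genes fell to 7 in EBs, those in at least 1 eCLIP library to 21 in embryos and 13 in EBs, those in the input to 0 and 1, and the mean percent of eCLIP peaks on histone genes rose to 3.46% in embryos and 2.29% in EBs. With an overlap of at least 50% of the gene, reproducibly peaked genes came to 11 and 4, at least 1 EB eCLIP library 13, the embryo input 0, all 4 eCLIP libraries 5, and the percent of peaks 1.10% and 0.566%. With genes linked by shared 75-mers counted as 1 group, the counts were 6 and 6 reproducibly peaked, 10 and 8 in at least 1, and 7 in all 4. Without peaks on 2 or more histone genes, 13 genes were reproducibly peaked in embryos, and the EB percent of peaks was 1.39%. With only the genes that share at most 20% of their 75-mers, an alternative added after seeing the data, the counts were 7 and 5, then 10 and 8, and 7 in all 4, with 0.658% and 0.549% of peaks. These last 3 settings count fewer genes by construction.

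Leaving out a replicate of each tissue, genes peaked in the remaining eCLIP library and not in the input ranged from 23 to 30 in embryos and from 19 to 24 in EBs, and those in all eCLIP libraries kept from 17 to 20, since fewer libraries had to hold a peak. The tissue difference in histone RPM was 1435 in the unpaired comparison and in the replicate block, where the exact sign-flip test gave p = 0.5, the smallest that 2 pairs allow. The replicate numbers of the labels do not tie embryo to EB material. Counts of 3 to 10 tags limit the calls on H3, H4 and most core genes, and a gene without a listed peak may hold tags below the caller's threshold.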
